A study of Homo sapiens and Mus musculus with 13 samples.

Results

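Skeletal muscle transcripts were measured by RNA-Seq in 6 mammary tumors of mice, with 36 skeletal muscle genes taken as the members out of 55228 gene symbols of the mouse table. The members are named genes of the contractile apparatus, calcium handling and energy supply of muscle fibres. They were 14 genes of fast fibres, 6 genes of slow fibres and 16 genes of both fibre types. All 36 were found in the table.

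The tumors were 3 of Trim11+/+ and 3 of Trim11+/- female mice, each with 1 library, at an age of 3 months. All 6 carried the MMTV-PyVT transgene, in which the promoter of mouse mammary tumor virus drives a viral oncogene in mammary epithelium. The mice are labelled as hybrids of FVB/N-Tg (MMTV-PyVT) 634Mul/J and C57BL/6N, mated after generations of backcrossing. In the Trim11+/- mice 1 allele had lost exons 2-6 of Trim11 in the whole body by CRISPR/Cas9. The labels do not tie each tumor to a separate mouse, so p-values measure the spread between these samples. Trim11 itself was 37.1 ± 1.84 FPKM (SD, n = 3) in Trim11+/+ tumors and 23.2 ± 0.660 FPKM (SD, n = 3) in Trim11+/- tumors, and the genotypes did not overlap. FPKM counts the fragments of a gene per kilobase of its length, scaled to library size. Library totals recovered from these values were between 8793199 and 11117125 reads.

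Muscle fibres contract when myosin heavy chains pull on actin filaments, and calcium acting on troponin starts the movement. Fast fibres and slow fibres use different genes for the same parts, and the genes of each kind are known. The mammary fat pads of the mouse lie under the skin, close to its thin muscle layer and to the muscles of the body wall, and mammary epithelium does not form sarcomeres.

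The adult myosin heavy chain genes are similar enough that the sequences are shown first, since a read must tell the genes apart. The 3 fast genes lie next to each other on chromosome 11 of mm10, with Myh2 at 67171027 to 67197517, Myh1 at 67200052 to 67224575 and Myh4 at 67238029 to 67260446. The slow gene Myh7 lies on chromosome 14 at 54970684 to 54994626. The lines below give 60 coding bases at the start of each gene, and capitals mark bases that differ from Myh4.
Myh4, chr11:67240630-67240689, plus strand, exon 2: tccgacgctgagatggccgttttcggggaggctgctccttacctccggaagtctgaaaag
Myh1, chr11:67201888-67201947, plus strand, exon 3: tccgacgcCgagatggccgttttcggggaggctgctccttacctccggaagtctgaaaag
Myh2, chr11:67173122-67173181, plus strand, exon 2: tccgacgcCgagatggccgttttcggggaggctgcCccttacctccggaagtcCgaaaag
Myh7, chr14:54992811-54992870, minus strand, exon 4: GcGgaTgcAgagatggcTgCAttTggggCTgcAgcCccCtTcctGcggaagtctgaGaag

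In this window Myh1 differed from Myh4 at 1 base, Myh2 at 3 bases and Myh7 at 16 bases. Over the whole coding sequence 90.22% of aligned bases were identical between Myh4 and Myh1, and 77.54% between Myh4 and Myh7. Stretches of 150 bases that another gene also holds made up 0.511% of the Myh4 transcript, 4.99% of Myh1, 3.63% of Myh2 and 6.60% of Myh7. So most reads could tell the genes apart, but a small part of the Myh1, Myh2 and Myh7 values is uncertain. Some of the shared stretches are held by genes outside the members, such as Myh6 for Myh7 and Myhas for Myh1. Of the 36 members, 25 shared no such stretch with another gene, in a check of 1 transcript of each member. Exons of 17 members overlap another gene on the opposite strand, and the libraries did not keep the strand. Some of the 25, such as Mb and Tnnc2, are among these 17.

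Of the 36 members, 29 were lower in Trim11+/- 2 and Trim11+/- 3 than in each of the other tumors. The exceptions were Myh7, Myl2, Tnni1, Actn2, Eno3, Pgam2 and Mb. The summed FPKM of the 36 members was 59.3 in Trim11+/+ 1, 264 in Trim11+/+ 2 and 433 in Trim11+/+ 3. In the Trim11+/- tumors it was 578 in Trim11+/- 1, 28.5 in Trim11+/- 2 and 22.9 in Trim11+/- 3. The highest and the lowest tumor were therefore of the same genotype, and they differed 25.2-fold. In the order Trim11+/+ 1 to 3, 15, 28 and 26 of the 36 members reached 1 FPKM, and in the order Trim11+/- 1 to 3, 27, 5 and 4 did. In Trim11+/- 2 and in Trim11+/- 3, 12 members had 0 reads, against 0 to 2 members in each of the other tumors. In bulk tissue, fewer muscle fibres and less RNA per fibre cannot be told apart.

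**Figure D1:**
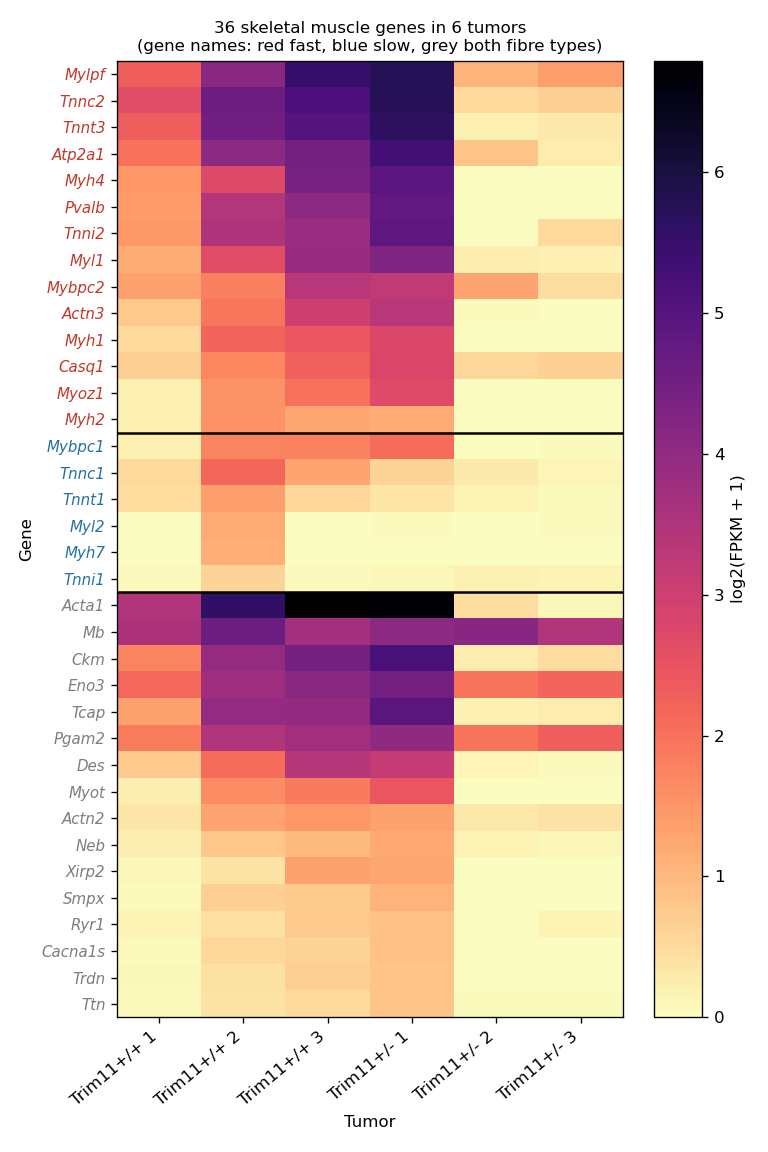
Expression of the 36 members (rows, grouped as fast fibre, slow fibre and both fibre types) in the 6 tumors (columns), as log2(FPKM + 1). Most rows are dark in Trim11+/+ 2, Trim11+/+ 3 and Trim11+/- 1, paler in Trim11+/+ 1 and near 0 in Trim11+/- 2 and Trim11+/- 3, while Mb stays between 9.92 and 23.2 FPKM in every tumor.

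Acta1 had the highest level of all members in 3 tumors. Acta1, which encodes skeletal muscle actin, lies on chromosome 8 of mm10 at 123891769 to 123894751. Its FPKM was 10.1, 46.8 and 109.5 in Trim11+/+ 1, 2 and 3, and 104, 0.370 and 0.0606 in Trim11+/- 1, 2 and 3. These values rested on 1688 reads in Trim11+/+ 3 and 1779 reads in Trim11+/- 1, and on 5 reads and 1 read in Trim11+/- 2 and 3. No stretch of 150 bases of Acta1 was shared with another gene. Ckm, the muscle creatine kinase that buffers ATP, was 2.36, 14.2 and 21.1 FPKM in Trim11+/+ tumors and 35.8, 0.195 and 0.383 FPKM in Trim11+/- tumors. Both genes overlapped widely between the genotypes, because Trim11+/- 1 was among the highest tumors and the other Trim11+/- tumors were the lowest.

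Among the motor proteins, Myh4, the heavy chain of the fastest fibres, was the main form. Its FPKM was 1.78, 5.62 and 20.5 in Trim11+/+ tumors 1 to 3 and 29.0, 0 and 0 in Trim11+/- tumors 1 to 3. Myh1, the heavy chain of type IIx fibres, was 0.432, 3.53 and 4.41 FPKM in Trim11+/+ tumors and 5.81, 0 and 0 FPKM in Trim11+/- tumors. Myh2, the heavy chain of type IIa fibres, was 0.154, 1.96 and 1.38 FPKM in Trim11+/+ tumors and 1.25, 0 and 0 FPKM in Trim11+/- tumors. None of these 3 genes had a read in Trim11+/- 2 or Trim11+/- 3. With a floor of 3 reads per library, Myh4 was at least 511-fold lower in Trim11+/- 2 and at least 625-fold lower in Trim11+/- 3 than in Trim11+/- 1, where it had 1940 reads. This floor covers counting error only.

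The slow myosin genes were found in 1 tumor. Myh7, the heavy chain of slow fibres and of the heart ventricle, was 1.24 FPKM with 109 reads in Trim11+/+ 2, and it had 0 reads in Trim11+/+ 1, Trim11+/+ 3, Trim11+/- 1 and Trim11+/- 3 and 1 read in Trim11+/- 2. Against the same floor it was at least 39.7-fold lower in Trim11+/- 1 than in Trim11+/+ 2, although Trim11+/- 1 had more of the fast genes. Myl2, the slow and ventricular regulatory light chain, had 26 reads and 1.31 FPKM in Trim11+/+ 2 and at most 1 read in any other tumor. Its fast counterpart Mylpf was 3.88, 16.3 and 44.6 FPKM in Trim11+/+ tumors and 54.0, 1.07 and 1.58 FPKM in Trim11+/- tumors. Mylpf therefore followed Acta1 and Myh4, and Myl2 followed Myh7.

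The share of the 4 adult myosin genes also differed in Trim11+/+ 2. Myh4 made up 45.5% of their summed FPKM there, against 75.2% in Trim11+/+ 1, 78.0% in Trim11+/+ 3 and 80.4% in Trim11+/- 1. Myh1 made up 28.6%, Myh2 15.8% and Myh7 10.1% in Trim11+/+ 2. In the other 3 tumors with these genes Myh2 made up between 3.46% and 6.50%. Fast forms together made up 89.9% of myosin heavy chain FPKM in Trim11+/+ 2, and no Myh7 read was found in the other 3. With 1 library per tumor, these shares have no replicate check within a tumor.

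Troponin, the calcium switch of the thin filament, has fast and slow genes for each of its parts. Tnnt3, fast troponin T, was 3.93, 21.9 and 31.2 FPKM in Trim11+/+ tumors and 49.0, 0.144 and 0.235 FPKM in Trim11+/- tumors. Its slow partner Tnnt1 was 0.415, 1.56 and 0.497 FPKM in Trim11+/+ tumors and 0.286, 0.103 and 0.0422 FPKM in Trim11+/- tumors. Tnnt1 was the single member whose genotypes did not overlap, with every Trim11+/+ tumor above every Trim11+/- tumor, on 1 to 35 reads per tumor (p = 0.1 in an exact two-sided permutation, and no lower p is possible with 3 tumors a group). Over all 17328 genes tested, 13.4% did not overlap between the genotypes, and 0 of the 27 members among them did. Tnnt1 was not among the genes tested, as its mean was under 0.5 FPKM.

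Troponin I and troponin C gave the same picture of fast forms. Tnni2, fast troponin I, was 1.71, 10.4 and 13.3 FPKM in Trim11+/+ tumors and 27.4, 0 and 0.435 FPKM in Trim11+/- tumors. Its slow partner Tnni1 was 0.0508, 0.519 and 0.0554 FPKM in Trim11+/+ tumors and 0.0750, 0.126 and 0.103 FPKM in Trim11+/- tumors. Tnni1 was thus highest in Trim11+/+ 2, on 19 reads, and had 2 to 4 reads elsewhere. Tnnc2, fast troponin C, was 5.26, 23.1 and 34.6 FPKM in Trim11+/+ tumors and 52.4, 0.426 and 0.582 FPKM in Trim11+/- tumors. Tnnc1, the troponin C of slow fibres and heart, was 0.440, 3.50 and 1.44 FPKM in Trim11+/+ tumors and 0.518, 0.218 and 0.0894 FPKM in Trim11+/- tumors. Trim11+/+ 2 was again the highest tumor for Tnnc1, and Trim11+/- 1 lay between Trim11+/+ 1 and Trim11+/+ 3.

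**Figure D2:**
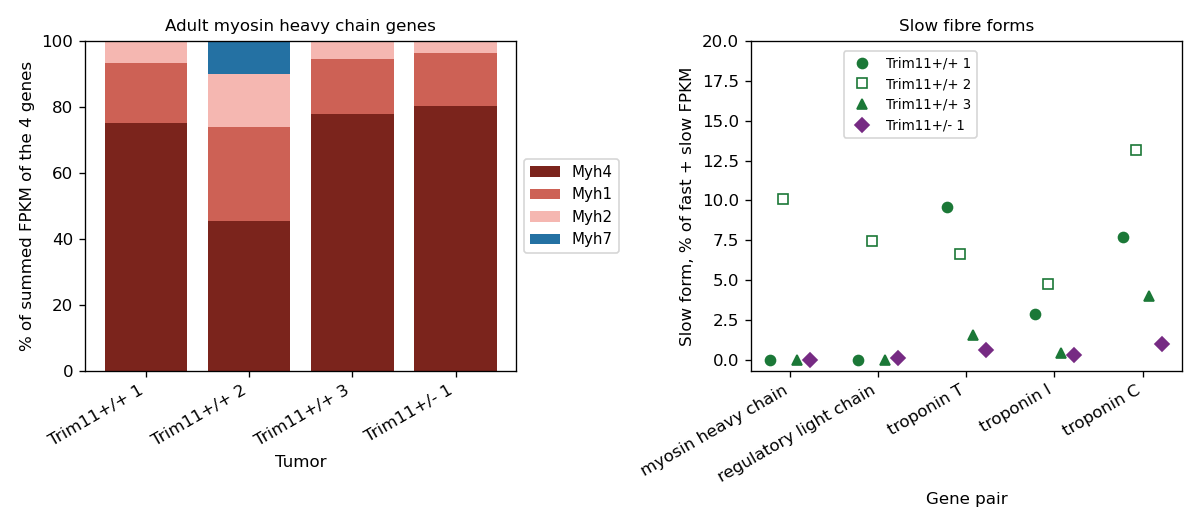
Left, the share of each adult myosin heavy chain gene in the summed FPKM of the 4 genes, in percent, for the 4 tumors with over 1 FPKM in all; right, the slow form as a percent of fast plus slow FPKM for 5 gene pairs in the same tumors, 1 point per tumor. Myh7 appears in Trim11+/+ 2 alone, at 10.1%, and the slow form of each troponin is at most 13.1%.

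Slow forms of troponin T, I and C were 6.65%, 4.73% and 13.1% of fast plus slow FPKM in Trim11+/+ 2, and 0.579%, 0.273% and 0.980% in Trim11+/- 1. In Trim11+/+ 1 they were 9.55%, 2.88% and 7.71%, but these rested on 10, 2 and 5 reads of the slow genes, and neither Myh7 nor Myl2 had a read there. Of the 6 slow fibre members, 5 were highest in Trim11+/+ 2. The exception was Mybpc1, the slow form of myosin-binding protein C, which fast fibres also express. It was 0.142, 2.35 and 2.38 FPKM in Trim11+/+ tumors and 3.26, 0 and 0.0206 FPKM in Trim11+/- tumors, the order of the fast genes.

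The other fast fibre members followed Myh4. Atp2a1, the fast calcium pump that returns calcium to the sarcoplasmic reticulum, was 2.97, 15.9 and 21.1 FPKM in Trim11+/+ tumors and 38.6, 0.785 and 0.187 FPKM in Trim11+/- tumors. Its exons overlap Rabep2 on the opposite strand, and the libraries did not keep the strand, so reads of the pair cannot be told apart in the overlap. Pvalb, a calcium buffer of fast fibres, was 1.67, 9.83 and 15.6 FPKM in Trim11+/+ tumors and 26.8, 0 and 0 FPKM in Trim11+/- tumors. Myl1, Actn3, Casq1, Myoz1 and Mybpc2, which encode a light chain, an actinin, a calcium store, a Z-disc protein and a myosin-binding protein, had between 5.51 and 18.8 FPKM in Trim11+/- 1 and at most 1.42 FPKM in Trim11+/- 2 and 3. In Trim11+/+ 1, Casq1 was 0.610 FPKM, little above its 0.572 FPKM in Trim11+/- 3. Mybpc2 was 1.52 FPKM in Trim11+/+ 1, little above its 1.42 FPKM in Trim11+/- 2.

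Very long structural genes of both fibre types, such as Ttn, gave low FPKM but many reads. Ttn, the giant spring titin, was 0.0460, 0.305 and 0.438 FPKM in Trim11+/+ tumors and 0.787, 0.0339 and 0.0238 FPKM in Trim11+/- tumors, and had 1026 reads in Trim11+/- 1. Des, the intermediate filament desmin, which smooth muscle also expresses, was 0.683, 3.20 and 9.53 FPKM in Trim11+/+ tumors and 7.76, 0.0909 and 0.0496 FPKM in Trim11+/- tumors. Des was therefore highest in Trim11+/+ 3, as was Acta1. The smooth muscle markers as a list, summed over 11 genes with Des among them, were highest in Trim11+/+ 1 at 270.0 FPKM and between 77.4 and 102 FPKM in the other tumors, so they did not have the order of Des. Tcap, Myot, Neb, Xirp2, Smpx, Actn2 and the calcium release genes Ryr1, Cacna1s and Trdn had between 0.779 and 28.7 FPKM in Trim11+/- 1 and at most 0.294 FPKM in Trim11+/- 2 and 3. In Trim11+/+ 1 they were between 0.0402 and 1.54 FPKM. Actn2 was 0.265 FPKM there, below its 0.294 FPKM in Trim11+/- 3. In all, 9 of 36 members had no read in either low tumor, namely Myh1, Myh2, Myh4, Pvalb, Myoz1, Cacna1s, Myot, Smpx and Trdn.

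A few members kept a level in the tumors without fast myosin heavy chain reads. Mb, the oxygen store myoglobin, was 10.6, 23.2 and 11.9 FPKM in Trim11+/+ tumors and 15.9, 16.6 and 9.92 FPKM in Trim11+/- tumors. Trim11+/- 2, which had no read of the fast heavy chains, was thus above Trim11+/- 1 for Mb. Its exons overlap Apol6 on the opposite strand, which was between 1.53 and 14.5 FPKM, and the part of Apol6 in the Mb reads was not tested. Eno3 and Pgam2, the muscle forms of 2 glycolysis enzymes, were 2.94 and 2.84 FPKM in Trim11+/- 2 and 3.53 and 3.88 FPKM in Trim11+/- 3, close to their 3.37 and 2.61 FPKM in Trim11+/+ 1. Mybpc2 was 1.42 FPKM in Trim11+/- 2 but 0.387 FPKM in Trim11+/- 3, below the 1.58 FPKM of Mylpf there. Together Mb, Eno3, Pgam2 and Mybpc2 made up 83.5% of the summed FPKM in Trim11+/- 2 and 77.3% in Trim11+/- 3, but 10.5% in Trim11+/- 1. Without these 4 genes, which were chosen after their values were seen, the sum was 517 FPKM in Trim11+/- 1, 4.72 FPKM in Trim11+/- 2 and 5.19 FPKM in Trim11+/- 3.

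The share of muscle was read as a share of the library total recovered from the FPKM values, since a library of pure muscle was not analysed here. Reads recovered for genes summed to between 97.7% and 98.0% of these totals, so the shares are close to shares of reads assigned to genes. Reads on the 36 members were 0.0123% of this total in Trim11+/+ 1 (95% Wilson interval 0.0117% to 0.0130%), 0.0578% in Trim11+/+ 2 (0.0563% to 0.0593%) and 0.0976% in Trim11+/+ 3 (0.0957% to 0.0996%). In Trim11+/- 1 the share was 0.133% (0.130% to 0.135%), in Trim11+/- 2 it was 0.00537% (0.00490% to 0.00587%) and in Trim11+/- 3 it was 0.00408% (0.00371% to 0.00448%). Neighbouring tumors in this order had intervals that did not overlap, but the intervals cover counting error only and not the choice of the piece of tissue. Muscle fibres hold many other transcripts, so these shares of reads are no share of cells or of tissue.

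**Figure D3:**
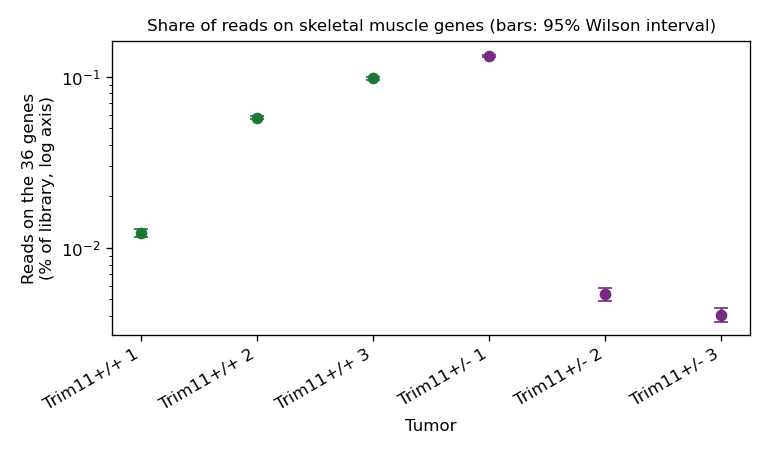
Reads on the 36 members as a percent of the recovered total of each library, on a log axis, with 95% Wilson intervals for counting error. The shares run from 0.00408% in Trim11+/- 3 to 0.133% in Trim11+/- 1, and the 3 Trim11+/+ tumors lie between.

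Relative amounts can be given without such a library. For the 35 members with a read in Trim11+/- 1, each gene was set against its own FPKM there, which leaves out Myh7. The median was 7.54% in Trim11+/+ 1 (quartiles 6.19% and 12.4%), 44.7% in Trim11+/+ 2 (37.9% and 63.5%) and 73.5% in Trim11+/+ 3 (59.2% and 83.4%). It was 0.559% in Trim11+/- 2 (0% and 7.54%) and 0.715% in Trim11+/- 3 (0% and 10.9%). These last medians were the values of Xirp2, on 1 read, and of Myl1, on 3 reads. They lie within the floor of 3 reads, so their size and order are uncertain. The slow fibre genes Tnni1, Tnnc1 and Tnnt1 were above the median in each of the 5 tumors, on 3 to 7 reads in Trim11+/- 1. In Trim11+/+ 2 they were at 693%, 674% and 547%. Myl2 was at 2843% in Trim11+/+ 2, set against 1 read in Trim11+/- 1. Myh4 was the lowest member in Trim11+/+ 2, at 19.4%. In Trim11+/+ 1 the range was also wide, from 0% for Myl2 to 145% for Tnnt1. These are ratios of levels between tumors and carry no test.

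**Figure D4:**
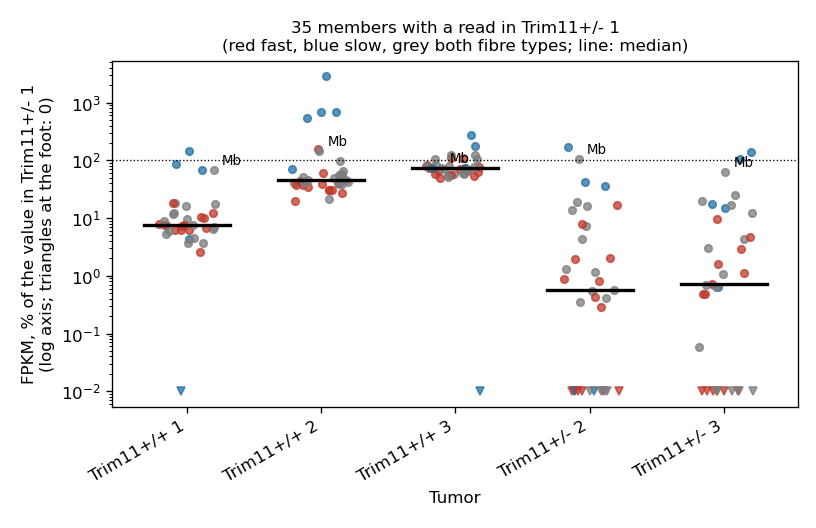
FPKM of 35 members in 5 tumors as a percent of the same gene in Trim11+/- 1, on a log axis, 1 point per gene, with the median as a line and genes at 0 as triangles at the foot. Medians are 7.54%, 44.7% and 73.5% in the Trim11+/+ tumors. They are 0.559% and 0.715% in Trim11+/- 2 and 3, on 1 read and 3 reads of single genes. The slow fibre genes Tnni1, Tnnc1 and Tnnt1 lie above the median in each of the 5 tumors, on 3 to 7 reads in Trim11+/- 1.

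Between the genotypes, the summed FPKM of the members was 252 ± 187 (SD, n = 3) in Trim11+/+ tumors and 209.8 ± 319 (SD, n = 3) in Trim11+/- tumors, a ratio of 0.832. The difference was smaller than the spread within either genotype. In limma's moderated test on log2(FPKM + 1), 27 of the 36 members passed the filter of a mean of 0.5 FPKM, and 1 of them, Tnnc1, met the rule of a 1.5-fold ratio with an unadjusted p under 0.05, beside 3.61% of all genes, or 1.87% in the lower direction. For Tnnc1 limma gave a log2 fold change of -0.99 (standard error 0.41), an unadjusted p of 0.0496 and a Benjamini-Hochberg adjusted p of 0.713, and the exact permutation test gave p = 0.2. Its values overlapped between the genotypes. The call was lost when any tumor other than Trim11+/+ 1 was left out, with log2 fold changes from -0.57 without Trim11+/+ 2 to -1.12 without Trim11+/- 1, and the adjusted p ran from 0.569 to 0.975 over all alternatives. The log2 fold change was below 0 for all 27 members tested, with a median of -0.79 beside -0.0048 over all genes, while the ratio of means was above 1 for Myh4, Tnni2, Ttn, Casq1 and Myoz1. These directions are not 27 separate results, since the members moved together. Over the 6 tumors, 29 of the 36 members had Pearson's r over 0.9 with the mean of the other members.

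Leaving out 1 tumor changed this comparison. Without Trim11+/- 1, 14 of the 26 members tested were lower in Trim11+/- tumors by the same rule, beside 2.70% of all genes that were lower. They were Acta1, Ckm, Myh1, Myh4, Mylpf, Myl1, Tnnt3, Tnni2, Tnnc2, Actn3, Atp2a1, Pvalb, Tcap and Des. As these genes moved together over the tumors, the 14 calls are not separate results to set against the share of all genes. The log2 fold change of Acta1 was then -5.01 (standard error 0.93), against -2.86 (standard error 1.84) with all 6 tumors, and its Benjamini-Hochberg adjusted p in limma was 0.524, the lowest of the members. The ratio of summed FPKM was then 0.102. Without Trim11+/+ 3, without Trim11+/- 2 or without Trim11+/- 3 the same ratio was 1.30, 1.19 and 1.20, so its direction also changed.

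**Figure D5:**
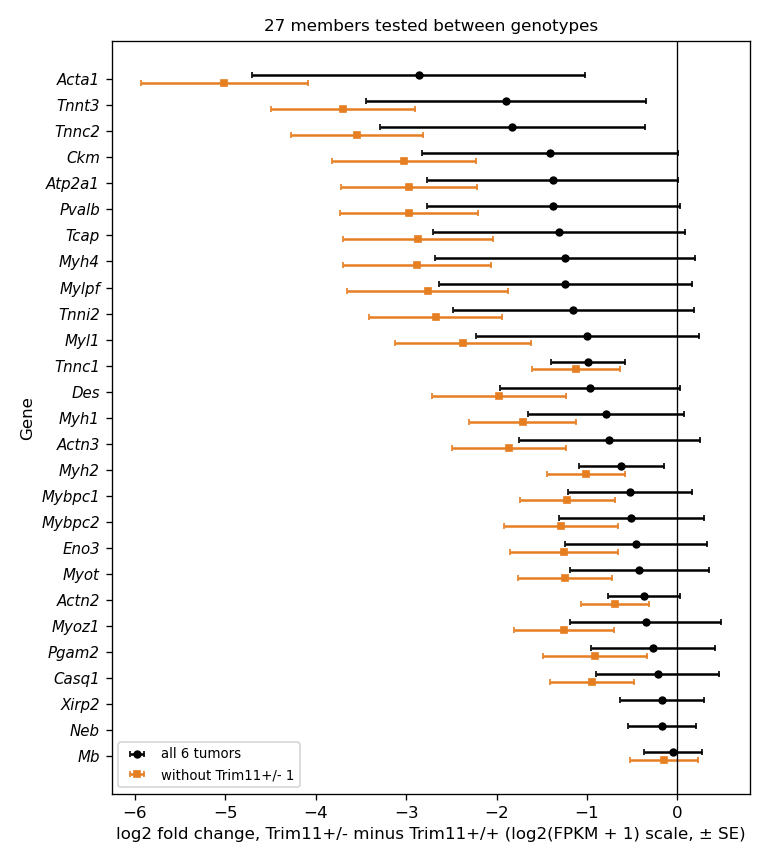
Log2 fold change of Trim11+/- against Trim11+/+ tumors with its standard error, on the log2(FPKM + 1) scale, for the 27 members tested with all 6 tumors (circles) and for the 25 of them also tested without Trim11+/- 1 (squares). All circles are below 0 with wide errors, and squares lie further to the left, as for Acta1 at -5.01 against -2.86.

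Other genes of muscle were read from a list of 55. The summed FPKM of this list was between 109 in Trim11+/+ 1 and 181 in Trim11+/- 1. Pygm, the muscle glycogen phosphorylase, was 1.02, 4.31 and 4.06 FPKM in Trim11+/+ tumors and 8.44, 0.459 and 0.116 FPKM in Trim11+/- tumors. The most abundant genes of the list, Atp2a2, Fbxo32, Cox8b, Cox7a1, Ldb3, Cacnb1 and Mybph did not have this order, and Atp2a2, the calcium pump of most cells, was between 47.5 and 56.1 FPKM. Srl and Tmod4 were also among the 10 most abundant, and Tmod4, which caps actin filaments of muscle, was between 2.56 and 4.09 FPKM in the other tumors and 0.795 and 1.36 FPKM in Trim11+/- 2 and 3.

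Of 16 myogenic and developmental genes, 14 were under 1 FPKM in every tumor, and the others were Des and Tnnt2, which was between 0.425 and 2.14 FPKM with its highest value in Trim11+/- 3. Pax7, Pax3, Mymx and Chrng had 0 FPKM in every tumor, and the embryonic and neonatal myosins Myh3 and Myh8 reached at most 0.0329 and 0.0169 FPKM. Myf6, which adult fibres express, was 0.145, 0.234 and 0.473 FPKM in Trim11+/+ tumors and 0.499, 0 and 0 FPKM in Trim11+/- tumors. Of 10 heart markers, 8 were under 1 FPKM in every tumor, with Myl7 and Nppb at 0 in every tumor and Myh6 at most 0.0338 FPKM. The others were Tnnt2 and Tnni3, the heart troponin I, which was between 1.35 and 5.95 FPKM with its lowest value in Trim11+/+ 3.

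Markers of other tissues of the fat pad moved with the members in part. Adipocyte markers, 11 genes summed, were 109, 487 and 147.5 FPKM in Trim11+/+ tumors and 428, 273 and 70.1 FPKM in Trim11+/- tumors. Trim11+/- 2 thus had more of them than Trim11+/+ 3, although the members were 28.5 and 433 FPKM. Fibroblast markers, 7 genes summed, were 166, 358 and 296 FPKM in Trim11+/+ tumors and 258, 144 and 180 FPKM in Trim11+/- tumors. All 7 had Pearson's r between 0.70 and 0.87 with the mean of the members over 6 tumors, as log2(FPKM + 1), and Col3a1, a collagen of fibroblasts, was 59.0, 124 and 101 FPKM in Trim11+/+ tumors and 82.9, 49.3 and 53.0 FPKM in Trim11+/- tumors. The r of the 11 adipocyte markers was between 0.25 and 0.75, and that of 7 endothelial markers, which summed to between 12.8 and 23.4 FPKM, was between 0.29 and 0.87. Epithelial markers, 6 genes summed, were between 1340 and 1857 FPKM in all 6 tumors. Their r was between -0.38 and 0.78, and it was above 0 for 3 of the 6 genes. Krt19, with the highest r, was 149, 184 and 177 FPKM in Trim11+/+ tumors and 204, 102 and 34.97 FPKM in Trim11+/- tumors. Skin, Schwann cell and brown fat markers had their highest sums in Trim11+/- 2, at 5.48, 267 and 28.4 FPKM. For brown fat, Trim11+/- 1 was close, at 28.3 FPKM. The r of these lists was above 0 for 2 of 6, 3 of 5 and 3 of 6 genes, in the same order. The part of all these tissues in the member values was not tested.

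Genes outside the muscle lists with the pattern most like the members were ranked by Pearson's r of log2(FPKM + 1) with the mean of the members over 6 tumors, among 563 genes that varied enough. Fhl1, a protein of muscle and other cells, had r = 0.99 with 1.80, 6.86 and 9.47 FPKM in Trim11+/+ tumors and 9.35, 1.47 and 0.952 FPKM in Trim11+/- tumors. Eef1a2, the elongation factor of muscle and nerve, had r = 0.98 and no read in Trim11+/- 2 or 3. The next were Npy, Myhas, Dpt, Fxyd1, Cd209f, Fbln7, Sik1 and Mir6942, with r between 0.89 and 0.95. Myhas overlaps Myh1 on the opposite strand, so its reads and those of Myh1 cannot be told apart there. Sik1, Cd209f and Mir6942 were no higher in Trim11+/+ 1 than in Trim11+/- 2. For Mir6942 both values were 0 FPKM. The other genes ranked share the contrast between 4 tumors and the 2 low ones, and r carries no test.

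In MDA-MB-231, a line of human breast cancer cells that grows without other tissue, 7 libraries were made from 1 Control, 2 TRIM11-KD, 2 KDM5C-KD and 2 DKD lines. The orthologues of all 36 members were in their table. The highest level was under 0.5 FPKM for 29 of them, and 8 were listed at 0 in every library, with MYH1, MYH2, MYH4 and MYH7 among them. Only 4 were above 1 FPKM in all 7 libraries. TNNT1 was between 44.6 and 64.6 FPKM, MB between 2.95 and 5.62 FPKM, ENO3 between 1.69 and 4.33 FPKM and TCAP between 1.37 and 3.53 FPKM. Human and mouse tables were made separately, so these levels are not compared with those of the tumors.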

How the data were processed

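Tumor tissue was homogenized and poly(A) RNA was sequenced from libraries that do not keep the strand, with paired reads of 150 bases. The authors trimmed the reads, aligned tumor reads to mm10 by HISAT2 and deposited FPKM values, 1 column per library, for which Cufflinks is named. Cell line reads were aligned to hg19. For 98.8% of 28794 genes checked the FPKM were whole reads over the exon length of GENCODE M21 (tolerance 0.01 read), which gave reads and library totals. Ttn, Neb and Xirp2 needed another length.

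Rows sharing a symbol were reduced to the highest mean. Genotypes were compared with limma 3.58.1 (R 4.3.3) on log2(FPKM + 1), which understates changes of low genes, over genes with a mean of at least 0.5 FPKM. Steps were tested on simulated data. Calls used a 1.5-fold ratio of means and an unadjusted p under 0.05, and single members an exact permutation test. All 36 members were named, with every tumor's value for main fibre genes and any called. Other genes were the 10 most abundant of the muscle list and the 10 most alike. The members and lists were chosen with earlier results of these data known. ChIP-Seq data were not used here. The genotype test of the other muscle genes is not reported here.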

Additional observations from a re-analysis of the deposited data

How the results depend on the processing

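Of the 27 members tested, 1 was called, and none was called by limma with a mean FPKM of at least 1, with median-ratio scaling, with limma voom on recovered reads or at an adjusted p under 0.05 (0 in each, and also 0 at an unadjusted p under 0.05 in the first 3 of these settings). Pseudocounts of 0.1 and 0.5, eBayes without a trend and a fold of 2 each called Tnnc1, and any mean above 0 called Tnnt1 in its place, 1 of 36 tested. With each tumor left out the count ran from 0 to 14, and the ratio of summed FPKM from 0.102 to 1.30. The log2 fold change of Mb, -0.05 with all tumors, ran from -0.25 to 0.28. The replicate block left 0 members called. Deviations of tumors with the same number had r of -0.33, 0.038 and -0.13, and those with different numbers had r between -0.29 and 0.37. The numbers thus gave no sign of pairing, but with 3 tumors a group this check cannot exclude it. Summed over the Trim11+/+ tumors kept, fast forms made up 91.5% or more of myosin heavy chain FPKM under each omission. Trim11+/+ 2 taken alone was at 89.9%. Leaving out Trim11+/- 1 gave no share for Trim11+/- tumors, since the others had 1 myosin read in all. A count of 0 reads allows up to 3 reads per library, which limits what can be said of the 12 members with 0 reads in Trim11+/- 2 and the 12 in Trim11+/- 3.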
